A study of Mus musculus with 20 samples.

Results

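The Serpina genes on mouse chromosome 12 encode serpins, secreted protease inhibitors that the liver releases into blood. A total of 9 of them, of 54325 genes in each deposited table, were taken by name: the alpha-1-antitrypsin paralogs Serpina1a, Serpina1b, Serpina1c, Serpina1d and Serpina1e, the antichymotrypsin relatives Serpina3k, Serpina3m and Serpina3n, and Serpina6, which encodes corticosteroid-binding globulin. They were selected on the group means and antibody fold changes of these same tables, so their levels, fold changes and diet differences are given as a description. The mRNA came from livers of C57BL/6 mice on regular chow or on food lacking methionine and choline (MCD diet), which the labels list as healthy and as NASH, the fatty liver inflammation that this diet produces. On each diet the mice received either a control IgG or an antibody to ACBP (acyl-CoA binding protein, also called DBI), a carrier that cells also release. The labels give 5 samples for each of the 4 groups formed by diet and antibody. Sex, age, dose, the time on the diet and the time of sampling are not given in the sources used here.

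A serpin traps its protease with an exposed stretch, the reactive centre loop, which the protease cuts as if it were a substrate and which then swings into the body of the serpin and drags the protease along. The residues of this loop decide which proteases are trapped. Alpha-1-antitrypsin, the best known serpin of plasma, is made by hepatocytes and protects tissue from neutrophil elastase; humans have a single gene for it and mice several copies. Serpina3k is also called contrapsin, and the mouse Serpina3 genes are copies of what is a single antichymotrypsin gene in humans. Serpina6 has lost inhibition and instead carries glucocorticoids in blood.

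The 5 Serpina1 copies are printed here over the codons 363 to 387 of their coding sequences, from the hinge of the reactive centre loop onwards, because this stretch makes the contact with the protease and holds a larger share of differing bases than the coding sequence as a whole. The sequences are those of the GENCODE M21 transcripts. They are written 5′ to 3′, and capitals mark the 18 of 75 bases that are not the same in all 5 copies.
Serpina1a: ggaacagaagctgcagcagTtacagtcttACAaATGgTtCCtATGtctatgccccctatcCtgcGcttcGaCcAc
Serpina1b: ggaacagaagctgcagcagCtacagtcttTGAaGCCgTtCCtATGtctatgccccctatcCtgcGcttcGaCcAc
Serpina1c: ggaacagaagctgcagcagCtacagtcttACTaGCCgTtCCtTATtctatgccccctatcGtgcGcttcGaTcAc
Serpina1d: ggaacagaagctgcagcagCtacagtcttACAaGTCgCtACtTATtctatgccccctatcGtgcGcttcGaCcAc
Serpina1e: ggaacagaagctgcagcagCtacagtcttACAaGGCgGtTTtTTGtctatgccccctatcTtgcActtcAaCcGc

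In the whole coding sequence of 1242 bases, 86 positions (6.92%) differed among the copies, against 24% in this stretch. Serpina1e held a base that no other copy has at 24 positions, 8 of them in the stretch shown, while the other copies held 6 to 19. Any pair of copies was 96.3% to 98.5% identical over the coding bases, and the closest pair, Serpina1a and Serpina1c, differed at 19 bases. Serpina3k and Serpina3m were 91.85% identical, Serpina3n was 83.7% and 85.2% identical to them, and Serpina6 was between 59.85% and 61.6% identical to the other members.

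This likeness bears on how far each copy's count can be trusted. The share of 100-base words of a gene's transcripts that occur in no transcript of another gene was 85.6% for Serpina1e and 85.2% for Serpina1b. It was 70.7% for Serpina1d and 57.2% for Serpina1a, and lowest, at 41.5%, for Serpina1c. The Serpina1 copies shared words with each other and with the pseudogene Gm8893. The share was 95.2% for Serpina3k, 93.9% for Serpina3m and 99.8% for Serpina3n, and all words of Serpina6 were its own. The read length and the treatment of reads that match several places are not given in the sources used here. Values of single Serpina1 copies are thus uncertain by an amount that was not tested, and their sum is given beside them. If such reads were left out, copies with a smaller share of own words would lose more counts. That would touch the sum, each copy's share of it and the order of the copies by level.

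The start regions of the copies are shown because the copies differed in how far their levels moved between the groups. Whether these sequences have a part in that was not tested. The RefSeq promoter table (GRCm38.p6) matched 6 of the 9 members, Serpina1a to Serpina1e and Serpina3n. The 93 bases printed are a stretch that all 5 entries hold between the same end sequences, read on the minus strand, and capitals mark GTTAAT, part of the recognition sequence of HNF1, a hepatocyte transcription factor. For Serpina1e they lie at chr12:103956956-103957048 and end 59 bases before the annotated start, and for Serpina1a they lie at chr12:103863621-103863713 and end 2 bases before it. The stretches of Serpina1b (chr12:103738196-103738288), Serpina1c (chr12:103904958-103905050) and Serpina1d (chr12:103773630-103773722) also lie close to their annotated starts.
Serpina1a: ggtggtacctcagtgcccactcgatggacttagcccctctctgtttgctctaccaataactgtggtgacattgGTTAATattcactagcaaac
Serpina1b: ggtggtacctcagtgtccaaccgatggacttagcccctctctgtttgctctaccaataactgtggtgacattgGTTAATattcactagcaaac
Serpina1c: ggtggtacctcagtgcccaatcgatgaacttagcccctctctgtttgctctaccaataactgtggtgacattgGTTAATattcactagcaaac
Serpina1d: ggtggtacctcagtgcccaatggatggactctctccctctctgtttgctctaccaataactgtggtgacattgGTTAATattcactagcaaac
Serpina1e: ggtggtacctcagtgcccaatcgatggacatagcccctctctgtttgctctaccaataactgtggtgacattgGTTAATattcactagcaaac

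Over these 93 bases Serpina1e differed from Serpina1a and from Serpina1c at 2 bases each, and Serpina1d differed from the others at 6 or 7. In the whole 300-base entries, searched on both strands, GTTAAT was present in all 5 copies and in 7.1% of 32851 promoters of that length. TGTTTGC, bound by FOXA factors, was likewise in all 5 (5.07% of promoters), as was CCAAT (37.4%), which overlaps GTTAAT by 1 base. TTGCNNAA, a C/EBP-like word, was in 4 copies and not in Serpina1c (10.8%), and ACANNNTGT, part of a glucocorticoid response element, was in Serpina1a alone among the copies and in Serpina3n (6.85%). The words TTCNNNGAA (8.3%), CAAAGTCC (1.42%) and TATAAA (13.6%) had no match in the 6 entries. These are matches of letters in a short window, and outside the 93 bases the entries were not aligned with each other.

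Group means per gene were deposited as read counts divided by size factors, called normalized counts below, in a table for each diet. The steps left by genes seen in a single read show 5 libraries per group behind the MCD means and 4 per group behind the chow means, fewer than the 5 samples in the labels. Column totals ran from 34621779 to 39398190. Values of single libraries were not used here, so no spread within a group and no overlap between groups can be given, and the error of an antibody effect is the standard error (SE) of the authors' log2 fold change. The defining hepatocyte markers were abundant in every group, with 7 of 8 on the list found and a summed level of 77948 to 111946 CPM, that is, counts scaled to a common column total. With anti-ACBP on MCD 5 of these 7 markers rose and 1 fell (median 0.41, and 3 and 1 relative to column totals), among them Apoh at 0.81 ± 0.10, Ttr at 0.78 ± 0.12 and Alb at 0.41 ± 0.11, while their chow median was -0.032. Summed neutrophil markers stood between 1.34 and 8.37 CPM and lymphocyte markers between 1.35 and 3.47 CPM. Stellate cell markers summed to 67.9 and 67.5 CPM on chow with IgG and anti-ACBP, to 323 in MCD with IgG and to 131 in MCD with anti-ACBP. Macrophage markers summed to 151, 140, 510 and 170 CPM in the same order. With anti-ACBP on chow 3 of the 7 stellate cell markers fell and 1 rose, so their near-equal chow sums hide changes in single genes. Acta2 stood at -1.59 ± 0.53, Col1a1 at -1.15 ± 0.22, Col3a1 at -0.87 ± 0.15 and Reln at 0.48 ± 0.17. The counts were the same relative to column totals. In whole liver, fewer cells of a type and less RNA per cell cannot be told apart, and the part of these markers in the results below was not tested.

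In chow livers with IgG the 9 genes together made up 4.095% of all normalized counts, and in MCD livers with IgG 1.48%. Per kilobase of exon, Serpina1e stood highest in chow livers with IgG, at 247360 normalized counts per kilobase. Serpina1c followed at 208406, Serpina3k at 195042, Serpina1a at 92493, Serpina1d at 82480 and Serpina1b at 77181. Serpina3n, Serpina3m and Serpina6 lay far below, at 6277, 3981 and 2984. The order was another in MCD livers with IgG. There Serpina1b stood highest at 66912 normalized counts per kilobase, followed by Serpina1c at 63595, Serpina1a at 49265, Serpina1d at 44729 and Serpina3k at 29932. Serpina3m at 12240, Serpina3n at 7881 and Serpina6 at 5958 came next, and Serpina1e, at 278, stood last of the 9. Whether neighbours in these orders differ beyond the spread of libraries could not be tested. The order of the Serpina1 copies also depends on how reads shared between them were counted, which is not known here. It rests as well on exon lengths, from 1361 bases for Serpina1c to 2415 for Serpina1b among the copies. Without division by length, Serpina3k stood highest in chow livers with IgG, at 401202 normalized counts against 399981 for Serpina1e. Serpina1b, at 186391, then stood above Serpina1a at 169447 and Serpina1d at 114977.

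**Figure D1:**
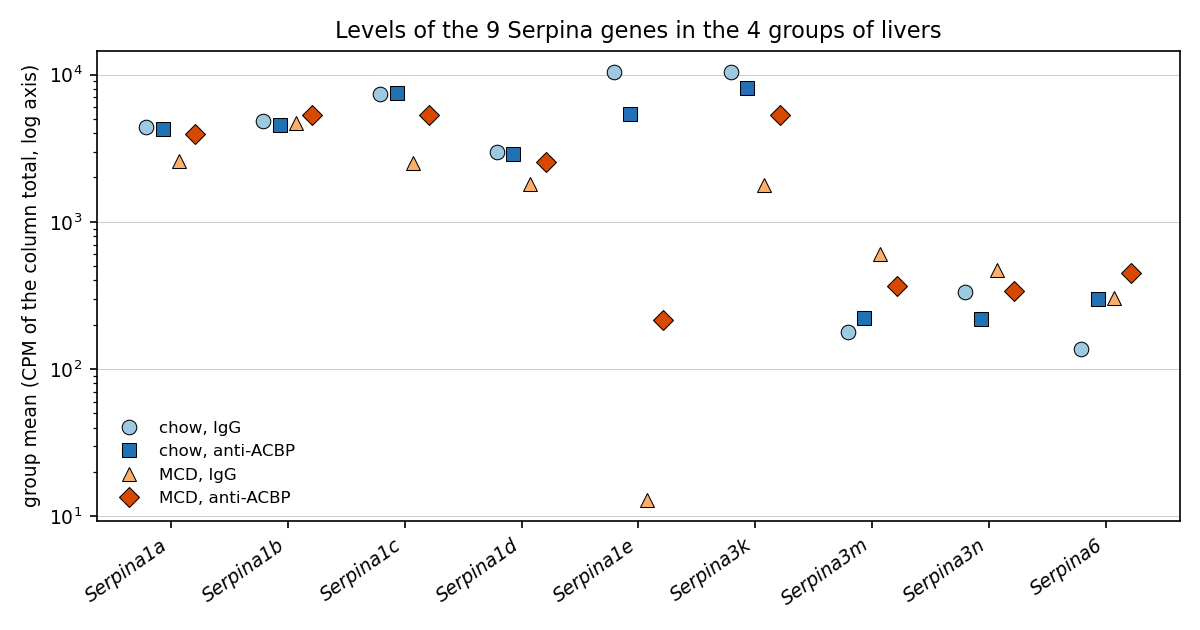
Group means of the 9 genes in the 4 groups, in CPM of the column total on a log axis; each point is the mean of 1 group and no error is available for it. Serpina1e spans the widest range, from 13.0 CPM in MCD with IgG to 10362 CPM in chow with IgG, while Serpina1b stays between 4558 and 5352 CPM.

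Serpina1e had the widest range of the 9 genes. The authors' deposited tables give it 399981 normalized counts in chow with IgG and 189359 in chow with anti-ACBP. It had 449 in MCD with IgG and 8534 in MCD with anti-ACBP. Anti-ACBP went with a mean 19.0 times higher on MCD, a log2 fold change of 4.25 ± 0.30 (SE), and with a mean 0.473 times that of IgG on chow, a log2 fold change of -1.08 ± 0.22. The fold changes had opposite signs on the diets, and with anti-ACBP the MCD level was still below both chow levels. Scaled to column totals, the chow level was 799 times the MCD level with IgG and 24.9 times it with anti-ACBP. The tables were scaled separately and hold no common library, so levels of MCD and chow are set side by side without a test. Relative to the median gene the log2 ratio of MCD to chow was -10.04 with IgG and -4.77 with anti-ACBP. In both cases it was the second lowest, of 10454 and 9799 genes ranked. Only genes at 3 normalized counts or more on both diets, and at a CPM of 5 or more on at least 1, were ranked. Genes that fell below that floor on MCD were thus left out, among them Serpina4-ps1, at -11.3 with IgG.

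The other 4 Serpina1 copies changed far less and kept a high level in each group. Serpina1a had means of 169447 and 149457 normalized counts in chow with IgG and anti-ACBP, and of 90253 and 156215 in MCD with IgG and anti-ACBP. Serpina1b had 186391 and 159942 on chow and 161592 and 210878 on MCD. Serpina1c had 283640 and 261336 on chow and 86553 and 210536 on MCD, and Serpina1d had 114977 and 101699 on chow and 62353 and 99948 on MCD. Relative to the median gene the log2 ratio of MCD to chow with IgG was -1.14 for Serpina1a, -0.44 for Serpina1b, -1.95 for Serpina1c and -1.12 for Serpina1d. In the authors' deposited MCD table the log2 fold changes were 0.79 ± 0.12 for Serpina1a, 0.38 ± 0.11 for Serpina1b, 1.28 ± 0.14 for Serpina1c and 0.68 ± 0.15 for Serpina1d. On chow they were -0.18 ± 0.055, -0.22 ± 0.078, -0.12 ± 0.083 and -0.18 ± 0.085, of which those of Serpina1c and Serpina1d did not pass the authors' test. The MCD values of Serpina1a and Serpina1d lay between those of Alb and Apoh given above, and that of Serpina1b just below that of Alb. All 7 hepatocyte markers ran from -0.23 for Ahsg to 0.81 for Apoh, a wide range. The part of these markers in the values of the copies was not tested. Relative to column totals Serpina1c on chow turned to 0.019, Serpina1a and Serpina1b on chow stood at -0.044 and -0.083 and no longer passed, and Serpina1b on MCD, at 0.20, no longer passed.

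The sum over the 5 copies is less exposed to reads placed on the wrong copy. It was 1154436 normalized counts in chow with IgG, 861793 in chow with anti-ACBP, 401199 in MCD with IgG and 686111 in MCD with anti-ACBP. As a share of all counts that was 2.99%, 2.46%, 1.16% and 1.74%. The log2 ratio of anti-ACBP to IgG was 0.77 on MCD, and 0.76 without Serpina1e. On chow it was -0.42, and -0.17 without Serpina1e. Serpina1e thus made up 34.65% of the sum in chow with IgG and 22.0% in chow with anti-ACBP, but 0.112% in MCD with IgG and 1.24% in MCD with anti-ACBP. Serpina1b went the other way as a share, from 16.2% in chow with IgG to 40.3% in MCD with IgG, while its own CPM was 4829 and 4667 and its ratio relative to the median gene the -0.44 given above. No error can be given for these sums and shares, and both would be touched if reads shared between copies were left out.

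**Figure D2:**
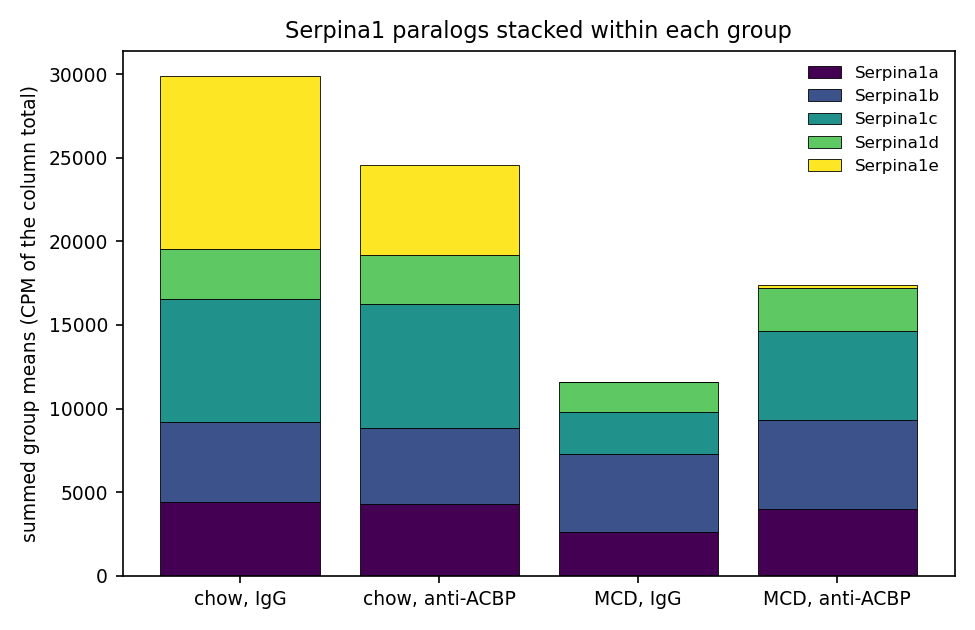
Stacked group means of the 5 Serpina1 copies in CPM of the column total, a bar for each of the 4 groups. The bars reach 29907, 24557, 11588 and 17415 CPM, and the top segment, Serpina1e, is too thin to see in MCD with IgG.

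Among the antichymotrypsin relatives Serpina3k followed the Serpina1 copies and Serpina3m and Serpina3n did not. Serpina3k, contrapsin, had means of 401202 normalized counts in chow with IgG, 284062 in chow with anti-ACBP, 61569 in MCD with IgG and 209218 in MCD with anti-ACBP. Its log2 fold change with anti-ACBP was 1.76 ± 0.24 on MCD and -0.50 ± 0.14 on chow. With IgG its CPM was 5.85 times higher on chow than on MCD. Serpina3m had means of 6843 and 7811 on chow with IgG and anti-ACBP and of 21041 and 14391 on MCD, so its highest mean was that of MCD with IgG. Its log2 fold change was -0.55 ± 0.13 on MCD and 0.19 ± 0.14 on chow, where it did not pass. Serpina3k and Serpina3m, the closest pair among the Serpina3 members, thus had values of opposite sign on each diet.

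Serpina3n, an acute phase serpin that inhibits granzyme B in mice, was lower with anti-ACBP on both diets. Its means were 12956 normalized counts in chow with IgG, 7706 in chow with anti-ACBP, 16266 in MCD with IgG and 13337 in MCD with anti-ACBP. The log2 fold change was -0.75 ± 0.095 on chow and -0.29 ± 0.098 on MCD. Its log2 ratio of MCD to chow, relative to the median gene, was 0.09 with IgG and 0.50 with anti-ACBP.

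Serpina6 was higher with anti-ACBP on both diets. Its means were 5256 normalized counts in chow with IgG and 10541 in chow with anti-ACBP, where the log2 fold change was 1.004 ± 0.19. They were 10492 in MCD with IgG and 17706 in MCD with anti-ACBP, where it was 0.75 ± 0.21. The level in chow with anti-ACBP and that in MCD with IgG, at 300 and 303 CPM, were nearly the same, and MCD with anti-ACBP stood highest at 449 CPM. Serpina6 shares no 100-base word with another gene, so the uncertainty among copies does not touch it. Of 15 other genes of glucocorticoid action, 5 rose and 1 fell with anti-ACBP on MCD, with a median log2 fold change of 0.18, and 3 rose on chow, with a median of 0.07; relative to column totals the MCD median was -0.0036 and 5 rose on chow. Those called on chow were the kinase Sgk1 (1.05 ± 0.17, adjusted p = 3.78e-08), the clock gene Per1 (0.997 ± 0.13, adjusted p = 1.72e-12) and the receptor chaperone Fkbp5 (0.67 ± 0.21, adjusted p = 0.0177). On MCD Sgk1 fell (-0.69 ± 0.14, adjusted p = 4.70e-06). The steroid reductase Srd5a1 rose there by 1.18 ± 0.16 (adjusted p = 9.51e-12), and Hsd11b1, which regenerates active glucocorticoid, by 0.81 ± 0.14 (adjusted p = 5.98e-08). The adjusted p-values of these and later genes are from the authors' deposited DESeq2 tables, with those under 0.001 recomputed from fold change and SE.

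Counted over all 9 genes, each of which had an adjusted p in both tables, 7 rose and 2 fell on MCD with an adjusted p under 0.05 in the authors' deposited table. On that diet 30.9% of 20265 genes tested passed, 14.7% as higher and 16.2% as lower, or 1398 higher and 5468 lower in place of 2973 and 3288 when fold changes are set relative to column totals, a shift of -0.19. On chow 1 rose, Serpina6, and 5 fell, against 12% of 14618 genes, 5.58% as higher and 6.46% as lower. There the split of 816 higher and 945 lower became 2605 and 533 relative to column totals, a shift of 0.14. The median log2 fold change of the 9 genes was 0.75 on MCD and -0.18 on chow, beside 0.018 and 0.0042 over all genes tested. Since these contrasts were known when the genes were chosen, nothing is read from the counts.

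**Figure D3:**
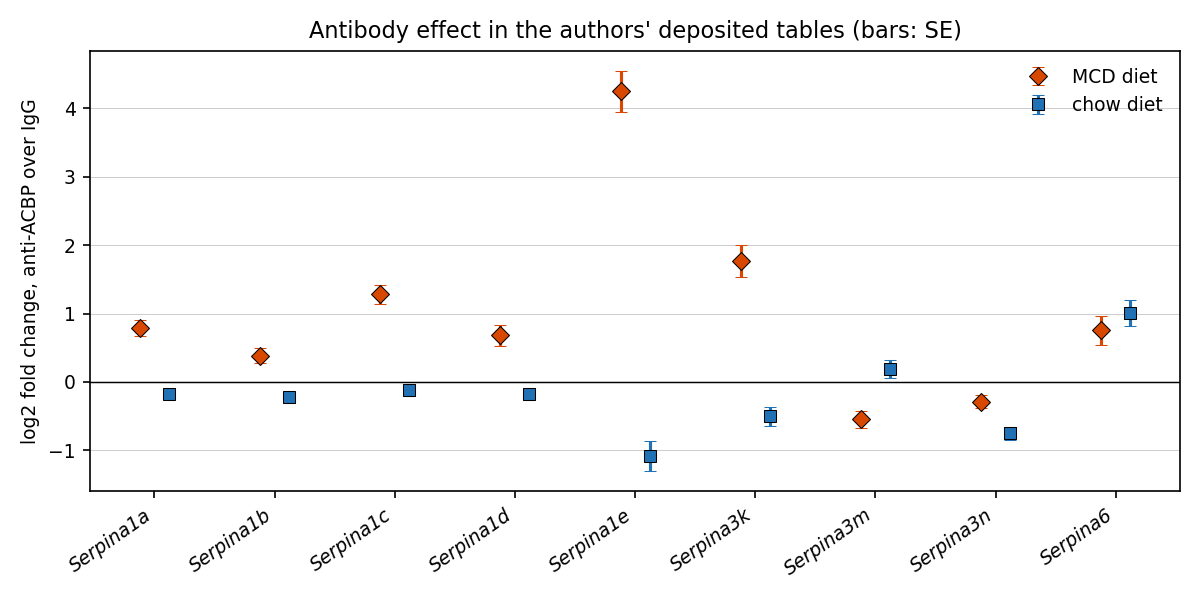
Log2 fold change of anti-ACBP over IgG for each of the 9 genes on the MCD diet and on chow, with bars of 1 SE, from the authors' deposited tables. The 5 Serpina1 copies and Serpina3k lie above 0 on MCD and below 0 on chow (relative to column totals Serpina1c on chow stands at 0.019), Serpina3n lies below 0 and Serpina6 above 0 on both diets.

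The antibody effect of a gene on MCD minus that on chow was computed with an SE from both tables. It was 5.33 ± 0.37 for Serpina1e, 2.26 ± 0.27 for Serpina3k and 1.40 ± 0.16 for Serpina1c. Serpina1a stood at 0.97 ± 0.13, Serpina1d at 0.86 ± 0.17 and Serpina1b at 0.60 ± 0.14. Serpina3m differed the other way, by -0.74 ± 0.19, and Serpina3n by 0.46 ± 0.14, being lowered more on chow. For Serpina6 the difference was -0.25 ± 0.28, with a 95% interval from -0.80 to 0.31, so an equal effect on both diets is neither shown nor set aside; relative to column totals it was -0.57 and did not pass either. Of the 9 genes 7 were called higher and 1 lower, where 23.2% of 14607 genes were called, 12.6% as higher and 10.6% as lower, or 717 higher and 4721 lower in place of 1847 and 1547 relative to column totals. In that scaling Serpina1b (0.28) and Serpina3n (0.14) no longer passed.

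Set between diets as levels, 5 of the 9 genes (Serpina1a, Serpina1c, Serpina1d, Serpina1e and Serpina3k) were lower on MCD than on chow with IgG by at least 1 on the log2 scale relative to the median gene, and Serpina3m was higher by 1.38. Relative to column totals without centring 3 were that much lower, since Serpina1a (-0.75) and Serpina1d (-0.73) were not, and Serpina6 (1.15) joined Serpina3m as higher. Among all 8956 genes at a CPM of 5 or more, 4.09% were that much lower and 4.29% that much higher. With anti-ACBP, Serpina1e alone of the 9 was past that size, where 0.631% of 9195 genes were lower and 0.859% higher. Among the others the log2 ratios with anti-ACBP ran from -0.74 for Serpina3k to 0.59 for Serpina3m. Both diet ratios share libraries with the antibody comparisons above and are no further evidence for them.

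The members sit in a row of 28 Serpina genes and pseudogenes on chromosome 12, from Serpina10 to Serpina3n in RefSeq's order, and the same tables hold the genes between them. Along this row the copies follow each other as Serpina1b, Serpina1d, Serpina1a, Serpina1c and Serpina1e, and their log2 fold changes on MCD were 0.38, 0.68, 0.79, 1.28 and 4.25 in that order, with Serpina1d and Serpina1a apart by less than their SEs. The pseudogene Gm8893, between Serpina1d and Serpina1a, stood at 0.26 ± 0.27 and did not pass. On chow the copies stood at -0.22, -0.18, -0.18, -0.12 and -1.08 in the same order. Gm8893 was lower there, at -0.81 ± 0.24 (adjusted p = 0.00952), and its difference between diets, 1.06 ± 0.36, passed. Of the 28 genes, 21 were tested on MCD, of which 12 rose and 3 fell, and 17 on chow, of which 1 rose and 8 fell. Over all genes tested 14.7% rose and 16.2% fell on MCD, and 5.58% and 6.46% on chow. The counts include the 9 selected members, so nothing is read from them. Relative to column totals Serpina1b and Serpina12 no longer passed on MCD, and Serpina10 (-0.38) and Serpina3i (-1.35) passed as lower. On chow Serpina1a, Serpina1b and Serpina11 no longer passed in that scaling. Next to Serpina1e in the row, Serpina11 rose by 1.11 ± 0.13 on MCD (adjusted p = 8.14e-15), from 1392 to 3012 normalized counts. Serpina9 rose from 8.6 to 164 normalized counts (4.25 ± 0.69, adjusted p = 1.16e-08), and Serpina12, which encodes vaspin, by 0.69 ± 0.21 (adjusted p = 0.00647). Serpina4-ps1, which the tables list as a pseudogene, stood at 2.47 normalized counts in MCD with IgG and 2964 in MCD with anti-ACBP, at least 988-fold higher with a floor of 3 normalized counts for the group mean. Its authors' fold change sits at the upper end of the column, 5, with an SE of 1.04. Their adjusted p is rounded to 0, and no value recomputed from the fold change of 5 is given for it. On chow its means were 5322 and 7006.

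**Figure D4:**
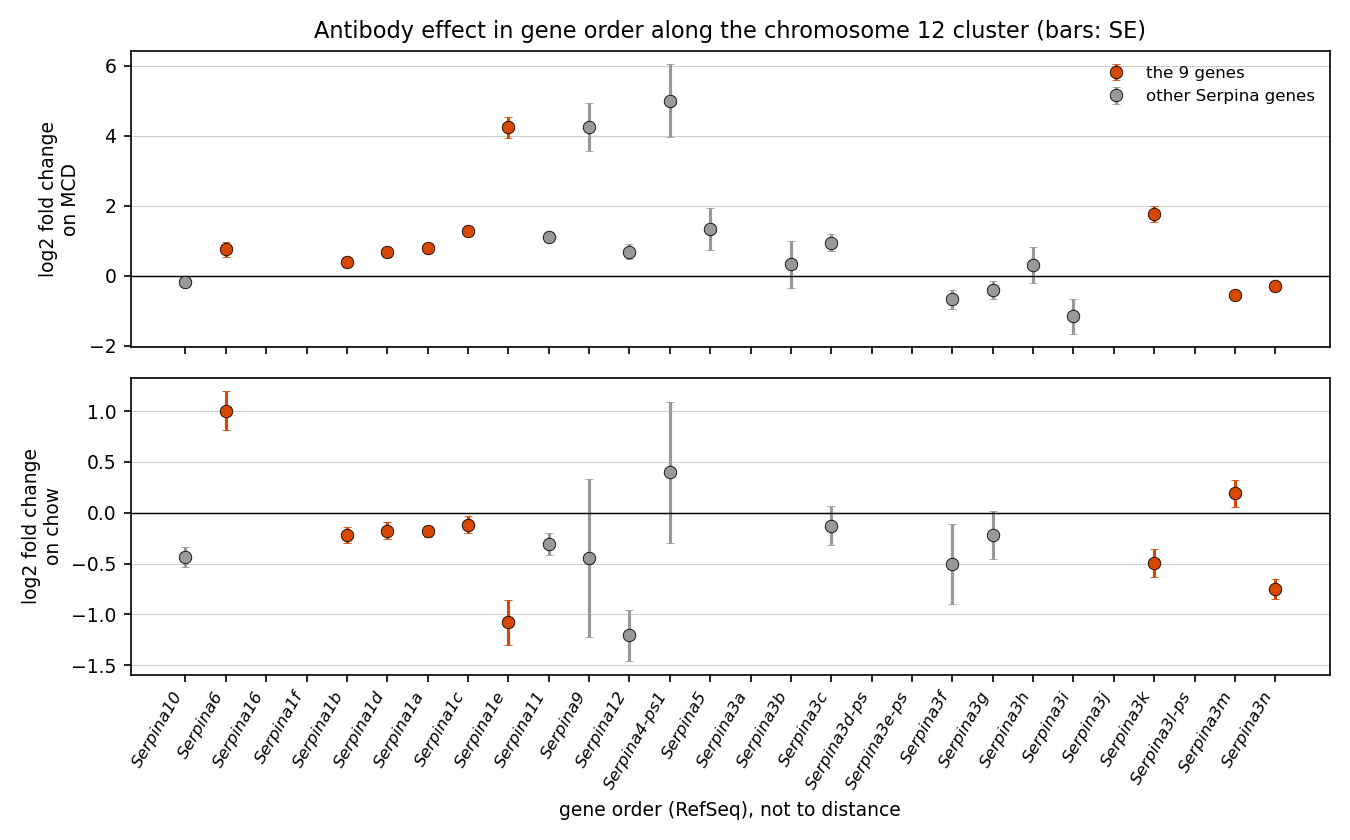
Log2 fold change of anti-ACBP over IgG with bars of 1 SE for the Serpina genes that the authors tested on each diet, in the order in which they lie on chromosome 12; gaps are genes that were not tested. On MCD Serpina1e, Serpina9 and Serpina4-ps1 stand at 4.25, 4.25 and 5, while Serpina1b, Serpina1d, Serpina1a and Serpina1c lie between 0.38 and 1.28.

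Of 17 other clade A serpins, 13 were tested on MCD, of which 5 rose and 1 fell (median 0.32), and 9 on chow, of which 1 rose and 3 fell (median -0.31); relative to column totals 4 rose and 4 fell on MCD, and 1 rose and 2 fell on chow. Serpina7, which encodes thyroxine-binding globulin and lies on another chromosome, the X, was the gene that rose on chow, from 858 to 1846 normalized counts (1.10 ± 0.21, adjusted p = 9.69e-06). The 3 that fell on chow were Serpina12 (-1.21 ± 0.25, adjusted p = 8.84e-05), Serpina10, an inhibitor of coagulation (-0.44 ± 0.098, adjusted p = 2.74e-04), and Serpina11 (-0.31 ± 0.11, adjusted p = 0.0384). In Serpina11 and Serpina12 the fold changes thus had opposite signs on the diets, though relative to column totals Serpina11 on chow (-0.17 ± 0.11) and Serpina12 on MCD (0.50 ± 0.21) no longer passed. Their differences between diets, 1.42 ± 0.17 and 1.89 ± 0.33, passed.

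Serpins of other clades that enter the secretory pathway were called in both directions. Of 11 on the list 10 were tested on MCD, of which 4 rose and 2 fell (median 0.095, and -0.091 with 3 higher and 3 lower relative to column totals). The complement inhibitor Serping1 rose by 0.78 ± 0.076 (adjusted p = 7.38e-23) and Serpinf1, pigment epithelium-derived factor, by 0.66 ± 0.099 (adjusted p = 7.08e-10). The collagen chaperone Serpinh1 fell (-0.88 ± 0.14, adjusted p = 2.43e-09). On chow 4 of 9 fell (median -0.30, and 1 of 9 relative to column totals), with Serpinf2, antiplasmin, at -0.72 ± 0.13 (adjusted p = 2.07e-06). Of the intracellular clade B serpins 7 of 19 were tested on MCD and 4 fell, among them Serpinb6a (-1.19 ± 0.12, adjusted p = 7.57e-22) and Serpinb9, an inhibitor of granzyme B (-1.11 ± 0.17, adjusted p = 2.89e-09). In the same livers 6 of 8 macrophage markers and all 7 stellate cell markers fell; their part in these values was not tested.

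Among 14 proteases of the kind that serpins inhibit, 9 were tested on MCD, and 5 rose and 2 fell (median 0.37). Relative to column totals 4 rose and 2 fell (median 0.18). Those made by hepatocytes were among the ones that rose, such as plasma kallikrein, Klkb1 (0.85 ± 0.11, adjusted p = 2.83e-12), and plasminogen, Plg (0.59 ± 0.093, adjusted p = 5.48e-09). The plasminogen activator Plau fell (-2.63 ± 0.25, adjusted p = 8.83e-24). Neutrophil elastase, Elane, the main target of alpha-1-antitrypsin, was at 2.38 normalized counts or less in each group, and cathepsin G, Ctsg, was listed at 0 in all 4. Both are mRNA levels in liver, and the protease proteins were not measured here. On chow 3 of 7 fell, and proteinase 3, Prtn3, went from 23.8 to 5.17 normalized counts (-2.18 ± 0.52, adjusted p = 7.77e-04). The others were F11 (-0.83 ± 0.15, adjusted p = 1.82e-06) and Plg (-0.38 ± 0.094, adjusted p = 0.00133), which had both risen on MCD.

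Alpha-1-antitrypsin leaves the endoplasmic reticulum with the cargo receptor Lman1, and misfolded chains are removed through Sel1l, Syvn1 and the derlins. Of 22 such genes 10 rose and 2 fell on MCD (median 0.15), or 4 and 5 relative to column totals (median -0.032), and 8 fell on chow (median -0.26). Derl3 rose on MCD from 56.5 to 171 normalized counts (1.59 ± 0.22, adjusted p = 2.36e-11) and fell on chow from 456 to 102 (-2.17 ± 0.36, adjusted p = 2.38e-07). Lman1 rose by 0.46 ± 0.10 on MCD (adjusted p = 7.08e-05), and its partner Mcfd2 fell (-0.51 ± 0.13, adjusted p = 5.09e-04). The chaperone Hspa5 fell on chow (-0.62 ± 0.16, adjusted p = 0.00203).

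Of 12 hepatocyte transcription factors 5 rose on MCD (median 0.25), or 2 relative to column totals (median 0.062). They were Foxa1 (0.79 ± 0.19, adjusted p = 2.11e-04), Cebpa (0.54 ± 0.14, adjusted p = 0.00117), Foxa3 (0.40 ± 0.14, adjusted p = 0.0119), Nr1h4 (0.40 ± 0.092, adjusted p = 1.00e-04) and Hnf4a (0.38 ± 0.15, adjusted p = 0.0431). On chow Nr1h4 was the 1 that passed (0.39 ± 0.097, adjusted p = 0.00124). Of 18 male-biased liver genes 17 rose on MCD (median 1.92) and 12 fell on chow (median -0.70), with Mup7 at 4.81 ± 0.69 on MCD (adjusted p = 1.28e-10) and -1.94 ± 0.50 on chow (adjusted p = 0.00205). In the growth hormone axis, which sets the sex bias of these genes, 4 of 11 rose and 1 fell on MCD (4 and 3 relative to column totals), with Bcl6 at 1.73 ± 0.26 (adjusted p = 5.83e-10) and the receptor Ghr at 1.04 ± 0.13 (adjusted p = 1.08e-13). On chow Cux2, a factor of female liver, rose from 16.9 to 113 normalized counts (2.79 ± 0.56, adjusted p = 3.66e-05), and Stat5b (-0.48 ± 0.081, adjusted p = 2.38e-07) and Igf1 (-0.32 ± 0.10, adjusted p = 0.0231) fell, though Igf1, at -0.18, no longer passed relative to column totals.

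Of 22 acute phase protein genes 18 fell on chow (median -0.81), and on MCD 10 fell and 6 rose (median -0.23). Relative to column totals 17 fell on chow (median -0.67), and 11 fell and 5 rose on MCD (median -0.42). Serpina3n, at -0.75 on chow and -0.29 on MCD, lay close to both medians. The genes of the list were widely spread around these, so nothing is read from that closeness. On MCD Orm2 stood at -2.67 ± 0.27 and Fgg at 0.78 ± 0.12. On chow Orm2 stood at -3.04 ± 0.45 and C3, which did not pass, at -0.19 ± 0.14. Of 12 genes of acute phase signalling 2 rose and 2 fell on MCD (2 and 4 relative to column totals), with the receptor subunits Il1rap (1.21 ± 0.11, adjusted p = 7.20e-27) and Lifr (1.20 ± 0.16, adjusted p = 6.76e-13) higher and Osmr (-1.40 ± 0.19, adjusted p = 1.37e-12) lower. Both medians and counts stand beside the shares of all genes given above.

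The genes most like Serpina1e over the 4 group means, by the distance of centred log2 CPM among 10577 genes, were Mup19, Mup7, Mup17, Mup14 and Mup16. All of them encode major urinary proteins, pheromone carriers of male mice. Their distances ran from 0.87 to 3.35. Mup19, the nearest, had means of 499371 and 212558 normalized counts on chow with IgG and anti-ACBP and of 564 and 20530 on MCD. The Mup genes are a family of close copies too, and how far their reads can be told apart was not tested. The genes most like Serpina3n were Apobec1, Id2, Chid1, Eipr1 and Cdh1, at distances of 0.05 to 0.12. The likeness rests on 4 means per gene, the same that enter the comparisons of Serpina1e and Serpina3n.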

How the data were processed

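Liver mRNA of 20 samples in 4 groups was sequenced from strand-specific libraries, per the labels' protocols. The submitters' processing notes name HISAT2 2.2.1, HTSeq 0.13.5, DESeq2 and the build mm39. The authors deposited a table for each diet. Its signal columns hold normalized counts (counts divided by size factors) as group means, per the file headers. The deposited log2 fold change is that of anti-ACBP over IgG, with its SE, and ends at -5 and 5. In the deposited tables the p-value and its adjusted form are rounded to 6 decimals. Adjusted p-values under 0.001 were recomputed here from fold change and SE. For genes whose fold change sits at -5 or 5 the recomputed value rests on that end value and need not match the authors' p. No column holds single libraries, so the planned count models were replaced by the authors' test. The means rest on 5 libraries per group on MCD and 4 on chow, with size factors from 0.838 to 1.11. Nothing says that libraries came from separate animals, so p-values measure the spread between these samples.

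The difference between diets used the normal distribution, with Benjamini-Hochberg adjustment over 14607 genes, and was tested on simulated data. The simulation drew normal fold changes with the deposited SEs, as the test assumes. It therefore cannot check those SEs, fold changes at the column ends or the separate scaling of the diets. Diet ratios were centred on the median of 8857 genes (0.24 with IgG, 0.29 with anti-ACBP). Lengths per kilobase are unions of exons in GENCODE M21. Genes named outside the 9 are those called with the largest fold changes, up to 4 per list and comparison, and any of a list with 5 or fewer called. The values of 1 such gene are not reported here. Serpina12 on MCD, and Elane, Ctsg, Gm8893, Fgg, C3 and Ahsg, were named after their values were seen. The members and lists were chosen with earlier results of these data known. Python 3.11.15, numpy 2.4.6, pandas 2.3.3, scipy 1.17.1 and Biopython 1.88 were used.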

Additional observations from a re-analysis of the deposited data

Results flagged for a closer look

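The antibody effect differed between the diets, by the test of the difference itself, in 8 of the 9 genes and in 6 of 9 other clade A serpins tested, where 23.2% of 14607 genes were called. The 9 genes were selected on these same group means, so their values are a description and nothing is read from their count. As log2 fold change on MCD minus that on chow, the values were 5.33 for Serpina1e, 2.26 for Serpina3k, 1.40 for Serpina1c, 0.97 for Serpina1a, 0.86 for Serpina1d, 0.60 for Serpina1b, 0.46 for Serpina3n and -0.74 for Serpina3m. Serpina1b and Serpina3n no longer passed relative to column totals. Among the other serpins they were 4.70 for Serpina9, 4.60 for Serpina4-ps1, whose MCD fold change sits at the end of the column, 1.89 for Serpina12, 1.42 for Serpina11, 1.08 for Serpina3c and -1.42 for Serpina7.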

How the results depend on the processing

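Relative to column totals the number of genes called went from 1761 to 3138 on chow and from 3394 to 5438 for the difference between diets. An adjusted p under 0.01 left 1007 and 2144 of these, and keeping genes at a CPM of 5 or more left 2193 for the difference. The median log2 ratio of MCD to chow over the 9 genes with IgG went from -1.12 to -0.73 when set relative to column totals without centring. The summed Serpina1 log2 ratio on MCD was 0.59 in CPM, and on chow -0.28 in CPM and -0.17 without Serpina1e. Serpina1c on chow reversed to 0.019 relative to column totals, without a call in either setting. Among the single genes, 131 of the alternative values kept their side and direction, 9 no longer passed and 12 moved; the cause was not tested. Leaving out each replicate was not run, since the tables hold group means. No paired analysis was possible because the columns carry no replicate numbers. The lowest group mean of a member was 449 normalized counts.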
